A study of Macaca fascicularis with 6 samples.

Results

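The set described here holds 10 immediate early genes: the zinc finger factors EGR1, EGR2 and EGR3, the orphan nuclear receptors NR4A1, NR4A2 and NR4A3, the immediate early response genes IER2, IER3 and IER5, and the MAP kinase phosphatase DUSP1. They were chosen by name, with earlier results of these data known. All 10 were found among the 14623 genes of the 6 gene tables and in each single table. The tables came from epithelial cells of wild-type cynomolgus monkey (Macaca fascicularis) corneas that were uninjured (day 0), or taken at the 1-day or 3-day healing stage after a corneal injury, with 2 samples in each of the 3 groups. Cells were passed through a strainer, captured in droplets on the 10x Genomics platform and labelled as HIT-scISOseq, a method that sequences full-length cDNA in long reads. Whether the gene tables count long or short reads, and whether reads were collapsed to molecules, is not stated in the sources used. If they were not collapsed, the intervals on shares given here are too narrow. The labels name no animal, so it is not stated if samples of 1 group are from separate monkeys, and the p-values then cover just the spread of these samples, which could be technical. The kind of injury is not given in the labels.

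Immediate early genes are transcribed within minutes of a stimulus without the need for new protein, because their promoters are bound in advance by serum response factor, ternary complex factors of the ELK family and CREB, which MAP kinase and calcium signals switch on. Their mRNAs are short-lived. EGR and NR4A proteins then act as transcription factors on later genes, while DUSP1 removes the activating phosphates from MAP kinases and so closes the loop. In the corneal epithelium, injury releases ligands of the EGF receptor that feed this pathway. The same genes are well known to be induced while a tissue is cut and digested into single cells, so a level measured in a cell suspension joins the state in the tissue with what happened during preparation. How much of each level here came from dissociation was not tested, since no library from undissociated tissue was used.

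The gene tables held 7895 cell barcodes, between 1068 and 1565 a sample, with a total count of 3733442 to 4928103 a sample. The median count per barcode was highest at day 3 (4447 and 4145) and between 2462 and 3258 in the other samples. The mitochondrial share of counts was lower at each later time: 9.12% and 9.32% without injury, 7.23% and 7.28% after 1 day, 4.52% and 4.39% after 3 days. Of the epithelial markers 7 of 7 had counts, and so had 8 of 8 corneal markers, whose sum was 25237 to 35110 CPM (counts per 1e+06 counts of the total, unscaled). Markers of other cells were low or uneven. In the same unit, the keratocyte and fibroblast list (8 of 8 with a count) stood at 652 and 507 in the uninjured group, 202 and 209 at day 1, then 1278 and 1230.1 at day 3, and the limbal list (5 of 7 with a count) at 5851 and 5326, 566 and 528, and 1691 and 1733 in the same order. The immune list (7 of 10, with no entry or no count for CD3E, NKG7 and CSF3R) lay between 155 and 231. The vascular list (4 of 5, with no entry or no count for CDH5) lay between 1.46 and 5.28. The melanocyte list (6 of 6) stood at 76.8 and 99.4, 21.7 and 30.3, and 33.5 and 24.4 in time order, and the cycling list (9 of 10) at 187 and 255, 79.7 and 87.1, and 293 and 313. The 9 heat shock genes in the tables summed to 9499 and 9843 in the uninjured group, 7588 and 8126 at day 1, then 9736 and 9592 at day 3. The conjunctival and goblet list (6 of 9, with no entry or no count for KRT13, MUC5AC and TFF3) stood at 3406 and 3901, 5034 and 4277, and 8802 and 9226. The sums of limbal, keratocyte, conjunctival, melanocyte and cycling markers, depth and the mitochondrial share thus moved with the days, as the genes described next did. Their part in the results was not tested. Single genes of a list did not always follow its sum. By the edgeR test described below, 3 of 5 keratocyte and fibroblast genes tested were higher and 1 lower at day 1 than in uninjured samples (median log2 change 1.44). Of 5 melanocyte genes tested, 4 did not pass at day 1 and 3 at day 3. The median log2 change of 5 limbal genes was -2.03 at day 1 and -2.73 at day 3. In sums over a sample, fewer cells of a type and less RNA per cell cannot be told apart.

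**Figure D1:**
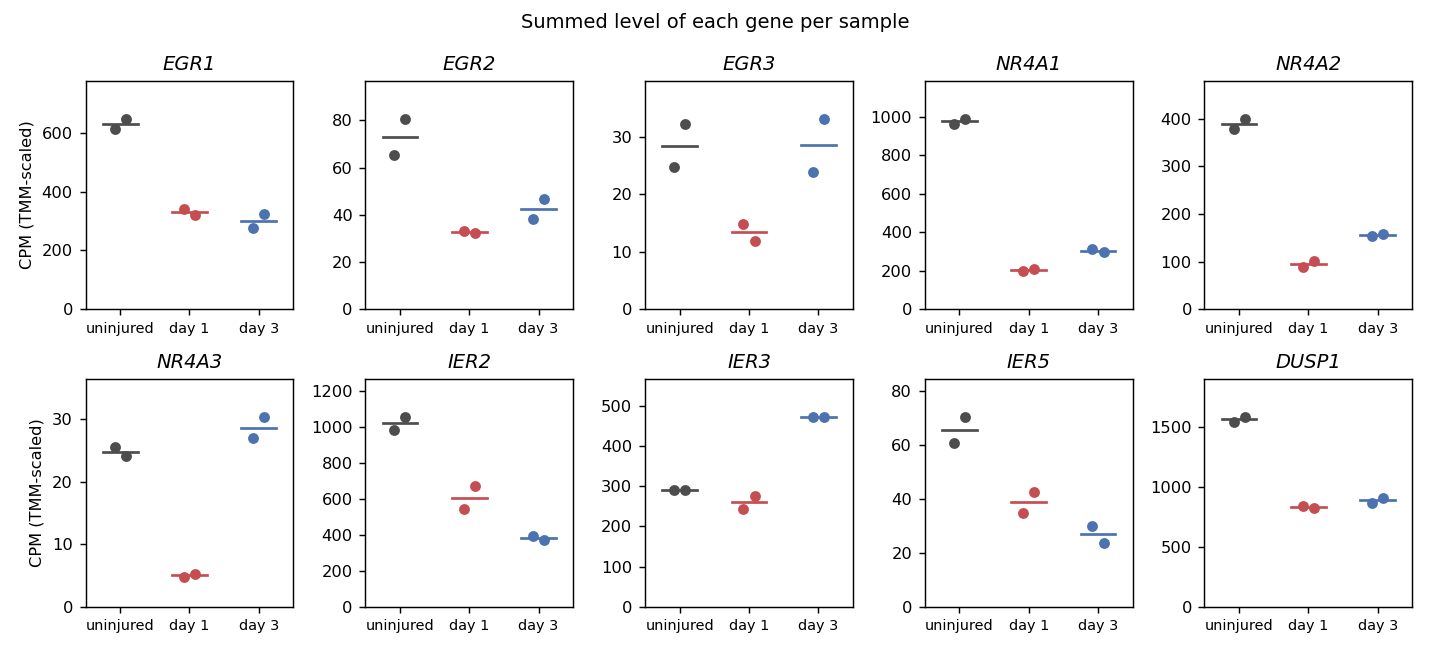
Each panel plots 1 gene, with its level in CPM (counts per 1e+06 counts, after TMM scaling) on the y axis (each axis starts at 0 and has its own scale) and the 3 groups on the x axis. Points are the 2 samples of a group and the bar is their mean. Both day 1 samples lie below both uninjured samples in all 10 panels, and IER3 is the gene whose day 3 samples lie far above the others, at 473 CPM.

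Levels are in CPM of the counts summed over a sample, scaled by the TMM method, and changes were tested with edgeR's quasi-likelihood test over 12294 genes with Benjamini-Hochberg adjustment at 0.05. The EGR factors were all lower at day 1 than in uninjured epithelium and then parted by day 3. EGR1, the most studied of the family and an activator of growth factor and matrix genes, had 611 and 647 CPM in the uninjured group, 340.0 and 322 CPM at day 1, then 275 and 322 CPM at day 3. The uninjured samples stood apart from the other 4, whose values overlapped between the days. EGR1 was 1.90-fold lower at day 1 than in uninjured samples (log2 change -0.93 ± 0.09 SE, edgeR adjusted p = 4.37e-06) and 2.11-fold lower at day 3 than in uninjured samples (-1.07 ± 0.09, adjusted p = 1.74e-06), and day 3 was not told apart from day 1 (-0.15 ± 0.09, adjusted p = 0.189) except with library totals alone (-0.23, adjusted p = 0.0467). EGR2, which also has a role in myelinating Schwann cells, had 65.6 and 80.6 CPM in the uninjured group, 33.3 and 32.5 CPM at day 1, then 38.0 and 46.6 CPM at day 3. Its groups did not overlap, and it was 2.23-fold lower at day 1 than in uninjured samples and 1.74-fold lower at day 3 than in uninjured samples, while the difference between day 3 and day 1 missed the threshold (log2 0.36 ± 0.15, edgeR adjusted p = 0.0519) and passed without barcodes under 500 counts (0.0458), without either uninjured replicate (0.0360 and 0.0358) and without day 3 replicate 1 (0.51, adjusted p = 0.0243).

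EGR3, needed for muscle spindles in mice, was lowest at day 1. It had 24.7 and 32.3 CPM in the uninjured group, 14.8 and 11.9 CPM at day 1, then 23.9 and 33.1 CPM at day 3, from 43 to 185 counts a sample. The day 1 samples were the lowest, and the uninjured and day 3 samples interleaved. EGR3 fell to 13.3 ± 2.00 CPM (SD, n = 2) at day 1, against 28.5 ± 5.35 CPM in uninjured samples (log2 change -1.09 ± 0.21 SE, edgeR adjusted p = 7.68e-04). At day 3 it was 2.11-fold higher than at day 1 (adjusted p = 0.00113) and not told apart from uninjured samples (-0.01 ± 0.18, adjusted p = 0.969). With scaling to library totals alone, which lowers the median log2 change over all genes at day 3 to -0.46, EGR3 passed as lower at day 3 than in uninjured samples (-0.43, adjusted p = 0.0466).

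The NR4A receptors gave the largest falls of the set at day 1. They bind DNA as monomers, or as dimers with each other and, for NR4A1 and NR4A2, with the retinoid X receptor, and need no known hormone, so that their amount is set mainly by transcription. NR4A1 had 962 and 987 CPM in the uninjured group, 199 and 207 CPM at day 1, then 312 and 294 CPM at day 3. NR4A2 had 379 and 399 CPM, 88.8 and 101 CPM, and 154 and 159 CPM in the same order. In both genes the 3 groups were apart, with day 1 lowest and day 3 between. NR4A2 fell to 95.04 ± 8.81 CPM (SD, n = 2) at day 1, against 389 ± 14.5 CPM in uninjured samples (4.11-fold lower, log2 -2.04 ± 0.09 SE, edgeR adjusted p = 5.28e-09), and NR4A1 was 4.80-fold lower. At day 3 NR4A1 was 3.21-fold lower and NR4A2 2.49-fold lower than in uninjured samples, and against day 1 they were 1.49-fold and 1.65-fold higher (edgeR adjusted p = 8.55e-05 for NR4A1 and 3.63e-05 for NR4A2).

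NR4A3 followed a course of its own within the family. It had 25.5 and 24.1 CPM in the uninjured group, 4.85 and 5.27 CPM at day 1, then 26.9 and 30.4 CPM at day 3, from 19 to 138 counts a sample. At day 1 it stood at 5.06 ± 0.30 CPM (SD, n = 2), against 24.8 ± 1.01 CPM in uninjured samples (4.89-fold lower, edgeR adjusted p = 7.85e-07). At day 3 it was 5.66-fold higher than at day 1 (log2 2.501 ± 0.183 SE, adjusted p = 6.04e-07). Day 3 and uninjured samples did not overlap, yet their difference missed the threshold (0.21 ± 0.13, adjusted p = 0.185) and turned negative with scaling to library totals alone (-0.21, adjusted p = 0.174).

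Among the IER genes, IER2 and IER5 declined across both days, whereas IER3 did not. IER2, a small nuclear protein linked to cell movement, had 984 and 1058 CPM in the uninjured group, 546 and 671 CPM at day 1, then 392 and 373 CPM at day 3. IER5, a regulator of the heat shock factor HSF1, had 60.6 and 70.3 CPM, 34.8 and 42.5 CPM, and 29.7 and 23.8 CPM. The 3 groups were apart in both genes, and the order was uninjured, day 1, day 3 from high to low. IER2 was 1.68-fold lower at day 1 and 2.67-fold lower at day 3 than in uninjured samples, and 1.59-fold lower at day 3 than at day 1 (edgeR adjusted p = 1.70e-04). IER5 was 1.71-fold lower at day 1 and 2.44-fold lower at day 3 than in uninjured samples. Its further fall at day 3 against day 1 (log2 -0.51 ± 0.15, adjusted p = 0.0125) was lost without day 1 replicate 2 (adjusted p = 0.0673), without day 3 replicate 2 (0.107) and with DESeq2 (0.0786).

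IER3, which protects cells from apoptosis and prolongs ERK signalling, had 291 and 292 CPM in the uninjured group, 244 and 275 CPM at day 1, then 473 and 473 CPM at day 3. Day 3 stood above the rest, and the day 1 samples lay a little below the uninjured ones. IER3 reached 473 ± 0.18 CPM (SD, n = 2) at day 3, against 291 ± 0.24 CPM in uninjured samples (1.62-fold higher, log2 0.70 ± 0.08 SE, edgeR adjusted p = 2.11e-05), and was 1.82-fold higher at day 3 than at day 1 (adjusted p = 4.38e-06). The size of the rise over uninjured samples depended on the processing, with log2 changes from 0.28 to 0.71 over 12 alternatives. It is a rise of the summed level, and the mean count per cell at equal depth, given below, did not show it. The difference at day 1 against uninjured samples missed the threshold (-0.17 ± 0.08, adjusted p = 0.0933). It passed as lower with library totals alone (-0.50, adjusted p = 3.06e-04) and without day 1 replicate 2 (-0.25, adjusted p = 0.0164).

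DUSP1 had 1540.2 and 1584 CPM in the uninjured group, 843 and 821 CPM at day 1, then 869 and 903 CPM at day 3. The uninjured samples were apart, and the days were close to each other. DUSP1 was 1.88-fold lower at day 1 than in uninjured samples (edgeR adjusted p = 1.10e-06) and 1.76-fold lower at day 3 than in uninjured samples (adjusted p = 3.38e-06), and day 3 was not told apart from day 1 (log2 0.09 ± 0.08 SE, adjusted p = 0.322).

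**Figure D2:**
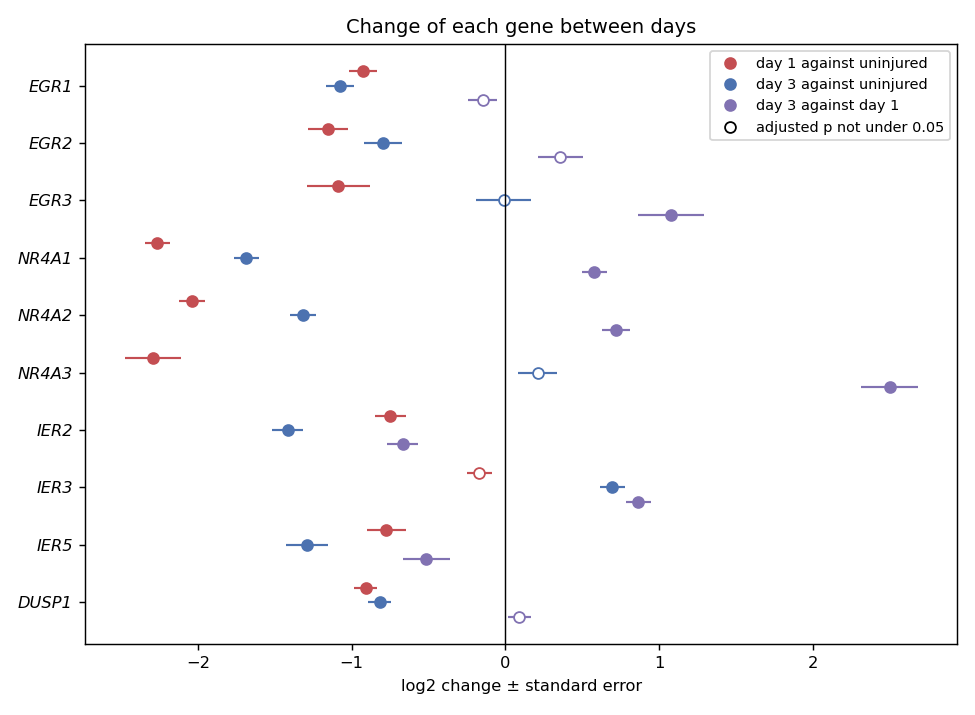
Points give the log2 change of each gene on the x axis with its standard error, for day 1 against uninjured, day 3 against uninjured and day 3 against day 1. Open points did not pass the adjusted threshold. The 3 NR4A genes have the lowest day 1 values, near -2, and at day 3 against uninjured EGR3 and NR4A3 lie close to 0 while IER3 lies at 0.70.

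At day 1, 9 of the 10 genes were lower than in uninjured samples and 0 were higher (10 lower with library totals alone), with a median log2 change of -1.01 beside -0.06 over all genes tested. Change was common in this comparison: 62.2% of all genes tested passed, 30.5% as higher and 31.7% as lower, and the 2 groups did not overlap in 81.5% of genes (43.1% with day 1 lower), as in 10 of the 10. A gene of the set that passed, or whose samples separated, is thus in itself ordinary. At day 3, 7 genes were lower and 1 was higher than in uninjured samples (median -0.95 beside -0.03 over all genes, 55.2% of which passed, 28.8% as higher and 26.4% as lower), and the groups did not overlap in 9 of 10, beside 79% of all genes (40.6% with day 3 lower). Between day 3 and day 1, 5 genes were higher and 2 lower (median 0.47 beside 0.02, with 59.3% of all genes passing, 30.5% as higher and 28.8% as lower), and the groups did not overlap in 9 of 10, beside 79.4% of all genes (38.6% with day 3 lower). The plot of log2 changes shows the same uninjured samples under both of the first comparisons and the day 1 samples under the first and last, so the comparisons are not independent of each other.

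The share of cells with at least 1 count was read after thinning each cell to 1000 counts, which left 1488 and 1348 uninjured cells, 1401 and 1142 cells at day 1, and 1084 and 1063 cells at day 3. NR4A1 was detected in 57.1% (exact 95% binomial interval 54.6 to 59.7%) and 61.8% (59.1 to 64.4%) of uninjured cells, 14.7% and 16.2% at day 1, and 25.3% and 23.9% at day 3. Without thinning the NR4A1 shares were 76.2% and 81.1%, 34.3% and 32.3%, and 60.5% and 55.6%, and day 3 lay nearer to uninjured cells there than in the thinned shares. NR4A2 was in 33.1% and 32.6% of thinned uninjured cells, 6.78% and 7.97% at day 1, and 11.1% and 12.4% at day 3 (53.0% and 58.0%, 19.4% and 19.7%, and 33.1% and 31.2% not thinned). Of the EGR factors, EGR1 was in 46.6% and 49.0% of thinned uninjured cells, 24.5% and 23.3% at day 1, and 22.9% and 24.7% at day 3 (72.3% and 76.1%, 47.3% and 44.0%, and 59.6% and 60.5% not thinned). In the thinned shares day 1 was below day 3 for NR4A1 and NR4A2, while for EGR1 the days interleaved; not thinned, EGR1 was higher at day 3 than at day 1, against the order of its CPM.

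DUSP1 was in 77.9% and 77.8% of thinned uninjured cells, 47.9% and 47.6% at day 1, and 49.8% and 48.3% at day 3 (91.6% and 92.7%, 76.2% and 72.1%, and 84.6% and 84.4% not thinned). IER2 was in 64.1% and 66.5%, 38.0% and 44.2%, and 26.5% and 27.1% of thinned cells (86.3% and 87.9%, 68.8% and 70.2%, and 69.0% and 65.2% not thinned). For IER2 the order of day 1 and day 3 thus shows in the thinned shares and not in the others. IER3 was in 31.3% and 29.7% of thinned uninjured cells, 16.7% and 20.3% at day 1, and 30.5% and 30.1% at day 3 (51.8% and 57.7%, 37.4% and 38.0%, and 63.7% and 64.8% not thinned). The IER3 shares of day 3 and uninjured cells nearly coincide although the summed CPM differed 1.62-fold. The mean IER3 count per thinned cell was also alike, at 0.425 and 0.419 in the uninjured group and 0.418 and 0.419 at day 3. In unscaled CPM, where deep cells weigh more, IER3 stood at 419 and 420.4 at day 3, against 346 and 348 in uninjured samples. The cause of this gap was not tested. EGR2, EGR3, NR4A3 and IER5 were each seen in under 8% of thinned cells in every sample, NR4A3 in as few as 2 of 1401 cells (0.143%, interval 0.0173 to 0.515%) in day 1 replicate 1. No cell type that should lack these genes was identified in the tables, so the share that free RNA would give was not measured. Intervals cover counting error only.

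Cells with many of the 10 genes were commoner in uninjured epithelium. A thinned cell held on average 3.29 and 3.39 of the 10 genes in the uninjured group, 1.55 and 1.68 at day 1, then 1.76 and 1.78 at day 3. At least 5 of the 10 were found in 21.5% and 23.9% of uninjured cells, 1.36% and 1.58% of cells at day 1, and 1.94% and 2.07% at day 3. The day 1 mean was 0.484 times the uninjured mean, and 0.611 times without thinning.

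**Figure D3:**
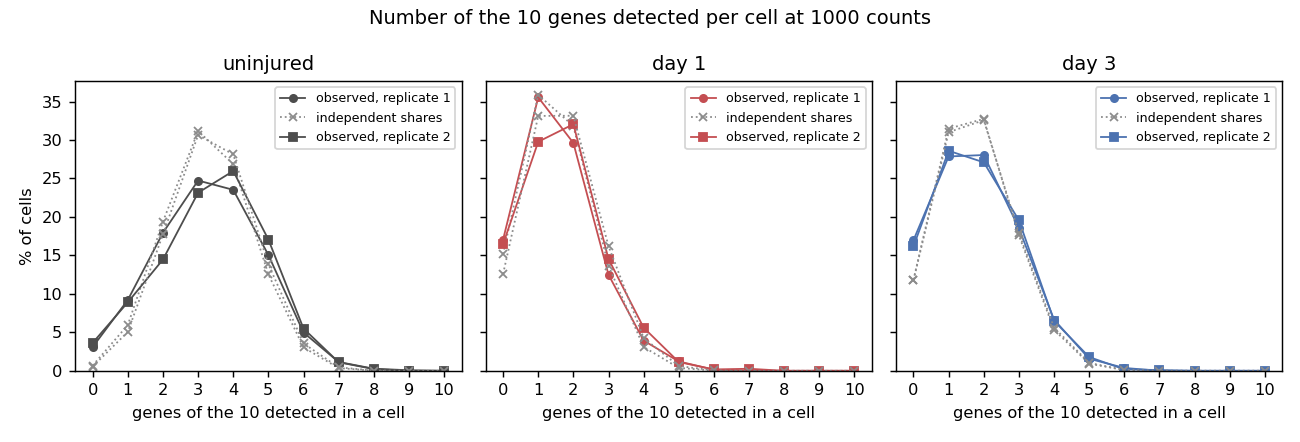
Each panel plots 1 group, with the number of the 10 genes detected in a cell thinned to 1000 counts on the x axis and the percentage of cells on the y axis. Solid lines are the 2 samples and dotted lines are what independent detection at the same shares would give. Uninjured cells centre on 3 to 4 genes and cells of both injured groups on 1 to 2, and in every sample the observed curve lies above the dotted one at 0 genes and at 5.

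Within a sample the genes were detected in the same cells more often than independent detection at the same shares would give. Other sets of genes were not compared, so whether this is particular to the set was not tested. Cells with none of the 10 made up 3.09% and 3.64% of uninjured cells, where independence gives 0.686% and 0.549%. At day 1 they were 17.1% and 16.5% (15.2% and 12.6% under independence), and at day 3 17.0% and 16.2% (11.9% and 11.7%). The variance of the number of genes per cell was 2.30 and 2.35 in the uninjured group, 1.25 and 1.42 at day 1, then 1.55 and 1.56 at day 3, against 1.51 and 1.51, 1.06 and 1.13, and 1.22 and 1.25 under independence.

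In single samples, 31 to 42 of the 45 pairs of genes were detected together more often than independent shares give. The median ratio of a sample was 1.09 to 1.14. Pairs of other genes were not counted in this way, so whether such counts are particular to this set was not tested. Of the 45 pairs, 17 were above independence in all 6 samples. Those with NR4A1 included both other receptors: NR4A1 and NR4A2 were found together 1.15 to 1.65 times as often as independence gives, and NR4A1 and NR4A3 1.18 to 3.53 times. EGR1 and EGR2 were found together 1.02 to 2.15 times as often, and EGR1 and EGR3 1.03 to 2.16 times. DUSP1 was above independence with NR4A1 (1.07 to 1.17 times), IER2 (1.01 to 1.10 times) and IER3 (1.03 to 1.10 times) in all 6 samples. In contrast, EGR3 with IER5 was above independence in 0 samples, on few cells. Pearson's r across cells of 1 sample was at most 0.242 for any pair, and such weak values in sparse counts are no finding. The number of pairs above independence in all 6 samples rose from 17 to 23 at 2000 counts and 36 without thinning, where cells also differ in depth.

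Across cells, the summed count of the 10 genes was compared with gene lists as a description; the points of each value are the cells of 1 library at the same thinned depth. With the AP-1 factors, the FOS and JUN family and their relatives, r was 0.56 and 0.57 in the uninjured group, 0.24 and 0.26 at day 1, then 0.28 and 0.23 at day 3. With 31 other immediate early genes it was 0.53 and 0.54, 0.25 and 0.25, and 0.31 and 0.26. With the 9 heat shock genes in the tables, which rise with many kinds of cell stress, it was 0.31 and 0.22, 0.10 and 0.06, and 0.10 and 0.11. The link was thus higher in uninjured samples, where the counts of the 10 genes are also higher. It was negative with the sum of the 8 corneal markers in all 6 samples, from -0.27 to -0.14. With the mitochondrially encoded transcripts it ran from -0.18 to 0.14 with no shared sign.

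Among the 10 genes whose counts per cell were most like the summed count of the set, by mean r over the 6 samples among 1882 genes, were JUNB (0.26), ZFP36 (0.24), FOS (0.22), KRT19 (0.22), ATF3 (0.20), BTG2 (0.20), FOSB (0.19), an unnamed gene ENSMFAG00000032417 (0.16) and the water channel AQP5 (0.16). JUNB, FOS, FOSB and ATF3 are AP-1 factors, ZFP36 encodes an mRNA decay factor and BTG2 an antiproliferative protein. KRT19, a keratin of simple epithelia and the conjunctiva, had a like r on each day, at 0.19 and 0.21 in the uninjured group, 0.18 and 0.21 at day 1, then 0.23 and 0.27 at day 3, whereas for JUNB it was 0.45 and 0.44, 0.12 and 0.22, and 0.18 and 0.14. At the other end of the 1882 genes stood KRT12 (-0.21), the cornea-specific keratin, and ALDH3A1 (-0.20), the corneal crystallin enzyme. AQP5 is on the same corneal marker list as KRT12 and ALDH3A1, so members of that list stood at both ends.

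A score per cell was the mean of basal markers minus the mean of differentiation markers, none of which is in the set. The differentiation markers include KRT4, a keratin of mucosal and conjunctival epithelium. Position within the epithelium is thus not the only thing that moves the score. Each sample's cells were ranked by it and divided into 3 equal ranges (terciles), and the counts of the most basal and the most differentiated tercile were summed and compared in edgeR with sample as a block. A tercile is a range of a score and not a cell type, and 5.36% to 9.39% of a sample's cells lay within 0.1 of a limit, on a score with an SD of 0.859 to 0.965. The markers themselves changed between days: in whole samples KRT15 was 11.5-fold lower at day 1 and KRT14 16.6-fold and KRT78 44.6-fold higher at day 3 than in uninjured samples, so a tercile may hold different cells on each day. A score from the 3 basal and 5 differentiation markers that changed by no more than 2-fold, chosen after seeing the data and called the day-stable score here, kept 75.7% to 84.3% of each tercile's cells. Depth differed with the score, the median count per cell being 1503 to 3667 in basal terciles and 3462 to 5082 in differentiated terciles. EGR2, EGR3 and DUSP1 were higher in the basal than in the differentiated tercile, 0 genes were lower and 7 did not pass (5 genes were higher with the day-stable score, NR4A2 and IER3 being added; 36% of 10842 genes tested passed, 18.4% as higher and 17.6% as lower).

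EGR3 was higher in the basal tercile of all 6 samples. Its basal terciles held 41.5 and 41.3 CPM in the uninjured group, 35.6 and 22.2 CPM at day 1, then 40.3 and 55.9 CPM at day 3, against 9.42 and 21.1 CPM, 2.31 and 2.19 CPM (4 and 3 counts), and 8.96 and 13.2 CPM in the differentiated terciles. Day 1 was lowest in both terciles, and uninjured and day 3 values overlapped in both. Over all samples the log2 difference was 2.15 ± 0.31 SE (edgeR adjusted p = 5.16e-04). For EGR2 it was 0.99 ± 0.28 (adjusted p = 0.0208), and for DUSP1 0.44 ± 0.12 (adjusted p = 0.0147), with both genes higher in the basal tercile of 6 of 6 samples. The DUSP1 call was lost without day 1 replicate 1 (adjusted p = 0.0531). IER3, at 0.68 ± 0.24, missed the threshold (adjusted p = 0.0541) and passed with library totals alone (0.0296), the day-stable score (0.00415), without day 3 replicate 1 (0.0396) and with 2 ranges in place of 3 (0.0496).

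**Figure D4:**
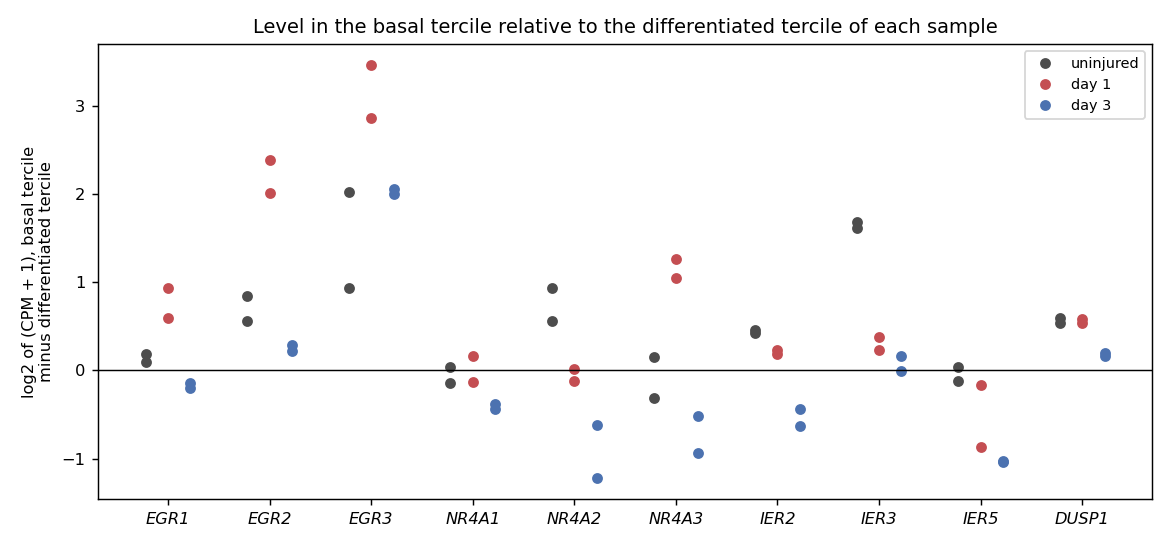
The y axis gives, for each sample, the log2 of CPM plus 1 in the basal tercile minus that in the differentiated tercile, and the x axis the 10 genes. Each point is 1 sample, coloured by group. EGR3 lies above 0 in all 6 samples, its day 1 points resting on 4 and 3 counts in the differentiated tercile. IER3 lies near 1.6 in both uninjured samples and under 0.4 in the other 4, and NR4A2 lies above 0 in both uninjured samples and below 0 in both day 3 samples.

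Whether the day difference had the same size in both terciles was tested as an interaction. Against uninjured samples, 5 of the 10 genes differed between terciles in their day 1 change (17.4% of all genes did, 10.9% as positive and 6.53% as negative), and 7 of 10 in their day 3 change (17.6%, of which 9.23% as positive and 8.38% as negative). The day 3 count was 4 with library totals alone, 3 to 7 without 1 replicate and 3 with the day-stable score. IER3 gave the clearest case. Its basal terciles held 578 and 596 CPM in the uninjured group, 242 and 262 CPM at day 1, then 441 and 468 CPM at day 3, whereas its differentiated terciles held 188 and 184 CPM, 187 and 222 CPM, and 442 and 418 CPM. In uninjured epithelium the gene was thus 3.08-fold and 3.23-fold higher in the basal tercile, and at day 3 the terciles were at 0.998 and 1.12 of each other. The interaction was -1.35 ± 0.12 (log2, SE, edgeR adjusted p = 2.17e-10) at day 1 and -1.58 ± 0.10 (adjusted p = 7.91e-14) at day 3, and with the day-stable score it was -0.77 (adjusted p = 5.62e-05) and -1.11 (adjusted p = 5.28e-09).

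NR4A2 passed the test with the full score and not with the day-stable one. Its basal terciles held 525 and 497 CPM in the uninjured group, 72.9 and 99.8 CPM at day 1, then 116 and 80.7 CPM at day 3, and its differentiated terciles 275 and 337 CPM, 79.2 and 98.7 CPM, and 179.9 and 189.5 CPM. At day 3 the basal tercile was thus 5.19-fold lower than in uninjured samples and the differentiated tercile 1.66-fold lower (interaction -1.64 ± 0.16, edgeR adjusted p = 5.45e-10). With the day-stable score the NR4A2 interaction was -0.40 at day 3 (adjusted p = 0.0630) and -0.37 at day 1 (adjusted p = 0.152), and NR4A2 was higher in the basal tercile over all samples (log2 0.61, adjusted p = 0.00290), where the full score gave -0.05 (adjusted p = 0.893). IER2 kept its call at day 3, with 308 and 312 CPM in the basal terciles at day 3, against 1276 and 1352 CPM in uninjured samples, and 478 and 424 CPM in the differentiated terciles at day 3, against 952 and 985 CPM in uninjured samples (interaction -0.98 ± 0.09, adjusted p = 3.62e-10; -0.74, adjusted p = 1.02e-06, with the day-stable score).

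The EGR factors went the other way at day 1. EGR2 stood at 73.7 and 53.2 CPM in the basal terciles at day 1, against 89.1 and 98.5 CPM in uninjured samples, and at 13.3 and 12.4 CPM in the differentiated terciles at day 1, against 49.3 and 66.4 CPM in uninjured samples. Its fall at day 1 was therefore larger in the differentiated tercile (interaction 1.62 ± 0.28, edgeR adjusted p = 6.78e-05). EGR1 had 397 and 350.4 CPM in the basal terciles at day 1, against 681 and 678 CPM in uninjured samples, and 207 and 232 CPM in the differentiated terciles at day 1, against 601 and 637 CPM in uninjured samples (interaction 0.65 ± 0.11, adjusted p = 4.71e-05). The EGR3 interaction at day 1 (2.25 ± 0.55, adjusted p = 0.00344) rests on the 4 and 3 counts given above and was lost without uninjured replicate 2 (adjusted p = 0.118), without day 1 replicate 1 (0.126) and with 2 ranges in place of 3 (0.0659). NR4A1, whose fall was among the largest, did not pass this test at day 1 (0.06 ± 0.12, adjusted p = 0.805).

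Cells with at least 2 counts of a marker gene were compared with the other cells of the same sample, as a description with no test. Such gates overlap, are no cell types and favour deep cells where the marker is low. Cells with KRT12 had less NR4A2 (0.402 to 0.755 times the level of other cells), IER3 (0.438 to 0.702 times) and DUSP1 (0.606 to 0.688 times) than the other cells in all 6 samples. Cells with KRT4, a keratin of mucosal and conjunctival epithelium, had more NR4A2 (1.32 to 2.04 times), NR4A3 (1.22 to 8.85 times, on as few as 5 counts) and DUSP1 (1.15 to 1.61 times) in all 6 samples. The KRT4 cells were deeper than the others, at a median of 3364 counts against 2283 in uninjured replicate 1.

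KRT14, the keratin of basal cells, marked cells with more EGR3 in all 6 samples (1.40 to 2.97 times the other cells). The KRT14 gate held 595 of 1565 and 506 of 1417 cells in uninjured samples but 920 of 1096 and 900 of 1068 cells at day 3, where the KRT14 level was 16.6-fold higher, so it sets different cells apart on each day. For NR4A2 its cells held 1.23 and 1.35 times the level of other cells in the uninjured group, 0.747 and 0.904 times at day 1, then 0.344 and 0.229 times at day 3. Cells with FN1, the matrix protein fibronectin, reached 50 barcodes only at day 3, where 162 and 167 cells held 74.6 and 79.6 CPM of EGR3 (41 and 44 counts), against 14.5 and 22.6 CPM in the other cells of those samples. Day 3 cells with KRT78, a keratin of superficial layers, held 4 of 104 EGR3 counts in replicate 1 and 1 of 135 in replicate 2. Such cells were few (81 of 1096 in replicate 1). Their EGR3 level was 0.357 and 0.0658 times that of the other cells in replicates 1 and 2.

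The isoform tables describe the transcripts of some of these genes. They use different isoform names in different samples, so isoforms can be set side by side only in the 3 samples that share names. Uninjured samples and day 1 replicate 1 share names that start with PB, while day 1 replicate 2 and the day 3 samples use reference transcript names and list 1 transcript for each gene of the set that has any. Isoform counts were summed only over barcodes that also had gene counts in the sample. All isoform barcodes did in the samples with PB names. In day 1 replicate 2 it was 1234 of 1560, and at day 3 701 of 1638 and 679 of 1337. In uninjured replicate 1 the isoform counts came to 95.05% of the gene counts for DUSP1 and 92.5% for IER3, but to 22.3% for NR4A1, 21.0% for EGR1 and 1.32% for IER2. For IER5 they came to 138%, more than the gene count. EGR2 had no isoform count in any sample.

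DUSP1 was read mainly as 2 transcripts in the 3 samples with PB names. One matched a reference transcript in full and took 57.5% (exact 95% interval 56.4 to 58.7%) and 56.8% (55.8 to 57.9%) of DUSP1 isoform counts in the uninjured samples; in day 1 replicate 1 it took 46.3% (44.7 to 48.0%). The other joined known splice sites in a combination that the reference lacks and took 47.2% (45.5 to 48.8%) in day 1 replicate 1, against 32.6% and 33.7% in the uninjured samples. With 1 day 1 sample under these names there is no replicate check, and the intervals compare libraries, not groups. For NR4A1, 93.5% and 93.8% of isoform counts in the uninjured samples were of transcripts with at least 1 splice site unknown to the reference, and 0 counts matched a reference transcript in full. In the 3 samples with reference names, all NR4A1 isoform counts of the shared barcodes (191 in day 1 replicate 2, 232 and 178 at day 3) were full matches. The class of NR4A1 thus differed with the naming, and it does not show which transcript the tissue makes. IER3 was read in the uninjured samples as 1 full match to the reference, at 96.4% in each.

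Other genes of the pathway were read from lists that share no gene with the set. The lists too were chosen with earlier results of these data known, so their counts are a description. Rose and fell stand for genes past the edgeR threshold. The lists did not all fall at day 1. Of all genes tested, 30.5% rose and 31.7% fell, and a list count near those shares is ordinary. Of the 10 AP-1 factors tested, 4 rose and 6 fell; FOSL1, a late FOS-related factor of migrating epithelium, rose to 177 ± 6.26 CPM (SD, n = 2), against 28.4 ± 0.431 CPM in uninjured samples (6.22-fold higher). FOS, the partner of JUN proteins in AP-1, fell to 1339.7 ± 64.1 CPM, against 4266 ± 55.3 CPM (3.18-fold lower), and ATF3, a stress-induced repressor, fell to 382 ± 17.3 CPM, against 1039.7 ± 3.09 CPM (2.72-fold lower). Of 31 other immediate early genes, 9 rose and 14 fell, among them ID2, an inhibitor of helix-loop-helix factors, which fell 3.98-fold, and TNFAIP3 and NFKBIA, inhibitors of NF-kappaB, which rose 3.90-fold and 2.64-fold. Of 22 upstream factors of the serum response and MAP kinase pathway, 11 rose and 3 fell (6 and 6 with library totals alone). ELK3, a ternary complex factor, rose to 41.0 ± 0.914 CPM, against 3.50 ± 0.723 CPM in uninjured samples, MRTFA, a cofactor of serum response factor, rose 4.43-fold, and the kinase MAP2K1 3.35-fold.

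Most feedback genes of MAP kinase signalling did not share the fall of DUSP1 at day 1. Of 22 tested, 13 rose, 5 fell and 4 did not pass, with a median log2 change of 0.92 beside -0.06 over all genes. Over all genes tested, 30.5% rose and 31.7% fell. DUSP5, a nuclear phosphatase of ERK, rose to 103 ± 4.59 CPM (SD, n = 2), against 13.1 ± 2.29 CPM in uninjured samples (7.93-fold higher), DUSP7, a cytoplasmic one, rose 4.80-fold, and PHLDA1 rose 4.86-fold. Of 19 partners of NR4A and known targets of EGR, 12 rose and 1 fell: PLAUR, the urokinase receptor, rose to 262 ± 20.3 CPM, against 17.8 ± 2.01 CPM (14.6-fold higher), ICAM1, an adhesion molecule, 9.42-fold and F3, tissue factor, 5.27-fold. Of the 14 heat shock genes listed, 9 were in the tables, of which 3 rose and 2 fell (3 and 3 with library totals alone); HSPH1 rose 2.22-fold and HSPB1 fell 1.49-fold.

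At day 3 against uninjured samples, 4 AP-1 factors were higher and 6 lower (2 and 6 with library totals alone), and the AP-1 subunit JUNB fell to 945 ± 42.2 CPM (SD, n = 2), against 2396 ± 8.75 CPM, while FOS was 3.07-fold lower. Of the 31 other immediate early genes 8 were higher and 21 lower: SOCS3, a feedback inhibitor of cytokine receptors, fell to 34.2 ± 4.36 CPM, against 243 ± 13.8 CPM (7.08-fold lower), whereas the matricellular genes CCN1 and CCN2 rose 4.40-fold and 7.81-fold. Of the 22 upstream factors 5 were higher and 5 lower, with 12 not passing (3 and 14 with library totals alone), and of the 22 feedback genes 9 were higher and 8 lower (7 and 12 with library totals alone). Over all genes tested, 28.8% were higher and 26.4% lower at day 3, and a list count near those shares is ordinary. Of the partners and targets 14 were higher and 1 lower, and of the 9 heat shock genes 6 were higher and 0 lower (5 and 2 with library totals alone), HSPH1 rising 5.10-fold.

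Most feedback genes were lower at day 3 than at day 1. Of 22, 4 were higher and 13 lower, with DUSP6, the cytoplasmic ERK phosphatase, falling to 26.0 ± 3.55 CPM (SD, n = 2) at day 3, against 176 ± 9.11 CPM at day 1 (6.75-fold lower), and DUSP2 falling 3.66-fold. Upstream factors were higher in 4 and lower in 13 of 22, and partners and targets higher in 4 and lower in 9 of 19, with the EGF receptor ligand HBEGF falling to 130.1 ± 7.83 CPM, against 409 ± 34.5 CPM at day 1. AP-1 factors were higher in 2 and lower in 5 of 10; ATF3 rose to 813 ± 31.7 CPM at day 3, against 382 ± 17.3 CPM at day 1. Heat shock genes were higher in 5 and lower in 0 of 9, and other immediate early genes higher in 11 and lower in 16 of 31. Beside these counts, 30.5% of all genes tested were higher and 28.8% lower at day 3 than at day 1.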

How the data were processed

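For each sample the authors deposited a gene by barcode table and an isoform by barcode table of whole-number count values. The submitters' processing notes name Cell Ranger without a version; the aligner, genome build and annotation, and the read type behind the gene tables, are not given in the sources used. All barcodes were kept; Scrublet (scanpy 1.11.5) called 66 (0.836%) doublets, and 68 had under 500 counts, both left out as alternatives. Of the 15 pairs of libraries, 8 barcodes were shared in sum. Counts were summed per sample, since cells are not replicates, and all 6 samples were fitted in edgeR 4.0.16 (R 4.3.3) by its quasi-likelihood test after filterByExpr, scaled by TMM, with group as the only term (threshold 0.05). TMM factors ran from 0.888 to 1.19. Replicates differed beyond counting error (chi-square per degree of freedom 1.95 to 4.79). Terciles were fitted with sample as a block. Code was tested on simulated data. The members and lists were chosen with earlier results of these data known. Text names all 10 members, up to 4 genes per list with the largest change, less those resting on few counts, and the 10 most similar genes, of which 1 is not reported here. Gene positions and sequences are not used here.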

Additional observations from a re-analysis of the deposited data

Results flagged for a closer look

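For 12 results the change against uninjured samples differed between the basal and the differentiated tercile of the cells, by edgeR's interaction test adjusted over 10842 genes. Values are the log2 change in the basal tercile minus that in the differentiated tercile. At day 1 it was 0.65 for EGR1, 1.62 for EGR2, 2.25 for EGR3, -0.79 for NR4A2 and -1.35 for IER3. At day 3 it was -0.30 for EGR1, -0.35 for NR4A1, -1.64 for NR4A2, -0.98 for IER2, -1.58 for IER3, -1.04 for IER5 and -0.39 for DUSP1. All 7 day 3 values are negative, where 8.38% of all genes passed as negative. Under the 11 alternatives run, the day 1 calls of EGR1, EGR2 and IER3 and the day 3 calls of IER2 and IER3 passed in each. Those of NR4A2 were lost only with the score from day-stable markers, at day 1 (-0.37, adjusted p = 0.152) and at day 3 (-0.40, adjusted p = 0.0630). With that score the day 3 calls of EGR1, NR4A1, IER5 and DUSP1 were lost too (adjusted p = 0.0656, 0.810, 0.116 and 0.0900). The day 3 call of EGR1 was lost in 9 of 11, among them library totals alone (-0.07, adjusted p = 0.744), and that of NR4A1 was lost with library totals alone (-0.12, adjusted p = 0.526). DUSP1 was lost at day 3 with library totals alone (-0.15, adjusted p = 0.241) and without either day 3 replicate (adjusted p = 0.0608 and 0.0733), and IER5 without uninjured replicate 2 (adjusted p = 0.110) or either day 3 replicate (0.118 and 0.0583). The median depth of the terciles differed too, and its part in these results was not tested.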

How the results depend on the processing

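Of 690 alternative values of single genes, 613 kept their direction and their side of the threshold, 33 lost the call, 20 gained it and 24 changed sign. None of the 24 had passed as first fitted. With library totals alone, the median log2 change over all genes became -0.40 at day 1 and -0.46 at day 3 against uninjured samples, and 29.1% rather than 49.1% of called genes were higher at day 1; NR4A3 at day 3 turned to -0.21, the DUSP1 day 1 interaction to 0.014, and 4 interactions passed at day 3. DESeq2 called 4213 genes at day 3 against uninjured samples, where edgeR called 6792, and gave 0.016 for EGR3. Without doublets EGR3 at day 3 was at 9.28e-04 and the DUSP1 day 1 interaction at 9.41e-04. With 2 ranges of the score in place of 3, 5 genes differed between basal and differentiated cells, NR4A3 stood at 0.085, and the day 1 interactions of NR4A1 and DUSP1 at -0.011 and 0.0058. With the score from day-stable markers, added after seeing the data, 5 genes differed between terciles and 3 in the day 3 interaction (EGR2, IER2 and IER3); NR4A2 and NR4A3 between terciles turned to 0.61 and 0.46, the DUSP1 day 1 interaction to 0.22 and the NR4A3 day 3 interaction to 0.11. Leaving out each replicate in turn gave 3 to 7 interactions at day 3, and log2 values of -0.26 to 0.21 for EGR3 at day 3, -0.054 to 0.16 for IER2, -0.26 to 0.16 for NR4A2 and -0.30 to 0.0079 for NR4A3 between terciles, and -0.13 to 0.22 for NR4A1 and -0.083 to 0.025 for DUSP1 in the day 1 interaction. The ratio of genes per cell at day 1 to uninjured, 0.484, was 0.559 at 2000 counts and 0.611 without thinning, and 36 rather than 17 pairs exceeded independence without thinning. Deviations of samples sharing a replicate number correlated at 0.169, 0.139 and 0.00777, so the numbers were not taken to pair the samples; a fit with the replicate block called 9, 8 and 8 of the 10 genes (7302, 6421 and 6959 genes in all) and added EGR2 at day 3 against day 1. The causes of these shifts were not tested. Genes with under 50 counts in a sample, such as NR4A3 at day 1, are limited by depth.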
